A study of Mus musculus with 6 samples.

Results

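The genes described here encode the chaperones of the cytosol and the mitochondria and their partners: the HSP70 and HSP110 proteins, the HSP90 system, the mitochondrial and cytosolic chaperonins, the small heat shock proteins, the J proteins, the Bag nucleotide exchange factors and the heat shock factors Hsf1 and Hsf2. They were taken by symbol: every gene whose symbol begins with Hspa, Hspb, Hsp90a, Hspd, Hspe, Hsph, Dnaja, Dnajb or Dnajc, or with Cct or Bag and a digit, together with Hsf1, Hsf2, Stip1, Trap1 and Tcp1, and without the endoplasmic reticulum (ER) genes Hspa5, Dnajb9, Dnajb11 and Dnajc3. This gave 85 of the 16426 genes listed in at least 1 library. The name rule also takes genes whose products sit elsewhere. Among them, Hspa13, Dnajc10 and Dnajc25 encode proteins of the ER, and Dnajb12, Dnajb14 and Dnajc1 proteins of the ER membrane. Dnajc13 encodes a protein of endosomes, and Dnajc30 a mitochondrial protein outside the folding machinery.

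RNA of whole livers was sequenced in 3 samples of mice given an shRNA against S1pr2 and 3 samples of mice given a scrambled shRNA. S1pr2 encodes a receptor for sphingosine-1-phosphate, and the series asks what this receptor does in metabolic disorders of long glucocorticoid exposure. Both hairpins were carried by AAV8, a viral vector that mainly enters hepatocytes, given through the tail vein; the promoter that drives the hairpin is not given in the sources used here. All mice were of a mixed B6:sv129 background, 7 to 12 weeks old and otherwise wild type. The series text states that the mice were male and that dexamethasone, a synthetic glucocorticoid, was given at about 0.84 mg/kg for 7 days in drinking water; it names no untreated group, so the comparison is between the hairpins under the drug. The labels do not state that the 3 samples of a group came from separate animals, so a p-value here sets the groups against the spread among the samples alone, which may be technical.

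Chaperones bind proteins that are not fully folded and release them in cycles of ATP use. HSP70 proteins take up clients handed to them by J proteins, which stimulate their ATPase, and nucleotide exchange factors such as the Bag proteins and HSP110 reset the cycle. Chaperonins are closed chambers: HSP60 with its lid HSP10 folds proteins inside mitochondria, and CCT (also called TRiC) folds actin, tubulin and other proteins in the cytosol. Many of these genes are switched on by Hsf1, which binds heat shock elements in their promoters when unfolded proteins accumulate.

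The libraries held between 16558775 and 17410160 expected counts. The hairpin's target was lower in the knockdown livers: S1pr2 stood at 3.03, 2.20 and 2.22 CPM in S1pr2 shRNA livers 1 to 3, against 4.41, 5.22 and 6.65 CPM in scramble livers 1 to 3. CPM is the count scaled to a fixed library total after TMM (trimmed mean of M-values) normalisation. The log2 fold change of S1pr2 was -1.12 ± 0.24 (SE, n = 3 each; edgeR quasi-likelihood test, Benjamini-Hochberg (BH) adjusted p = 0.0301), on 36 to 60 counts in the S1pr2 shRNA libraries and 72 to 110 in the scramble libraries. That call was lost in 7 of 17 other settings, among them those without S1pr2 shRNA liver 2 or 3 or scramble liver 2 or 3, with adjusted p between 0.00401 and 0.117. The markers of hepatocytes were abundant in all 6 livers, and 0 of 7 passed the test. Their summed level ran from 78944 to 117475 CPM in the S1pr2 shRNA livers and from 123078 to 153716 CPM in the scramble livers, most of it Alb, at 56799 to 85548 CPM in the S1pr2 shRNA livers and 103190 to 128945 CPM in the scramble livers. Of the 7 log2 fold changes, 1 was above 0 and 6 were below (median -0.25, beside 0.01 over all genes). Without overlap between groups, Apoa1 had a higher level in the S1pr2 shRNA livers (log2 fold change 1.08) and Tat a lower one (-1.01). Ttr (-0.07), Cps1 (-0.07), Serpina1a (-0.25) and Hnf4a (-0.36) had overlapping groups. In whole liver, fewer cells of a type and less RNA per cell cannot be told apart.

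Of the 85 genes, 77 had enough counts to be tested. Of these, 6 passed the test, all of them lower in the S1pr2 shRNA livers, and 0 were higher. A gene passed at an edgeR BH-adjusted p under 0.05 over all 12230 genes tested. The share called was 7.79% of the 77 genes, beside 7.66% of all genes tested; called lower were 4.64% of all genes and called higher 3.02%. At an unadjusted p under 0.05 there were 14 of the 77 genes, 3 higher (3.9%) and 11 lower (14.3%), or 18.2%, beside 24.5% of all genes (11.5% higher and 12.9% lower). The groups did not overlap for 21 of the 77 genes (27.3%), 6 higher (7.79%) and 15 lower (19.5%), while 31.9% of all genes tested had groups that did not overlap (15.1% higher and 16.8% lower). The median log2 fold change of the 77 genes was -0.04, with 29 above 0 and 48 below, beside a median of 0.01 over all genes. The share called in either direction lies near the background and is not a result about the family; the shares of higher genes were below those of all genes by each of these counts, and that difference was not tested.

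**Figure D1:**
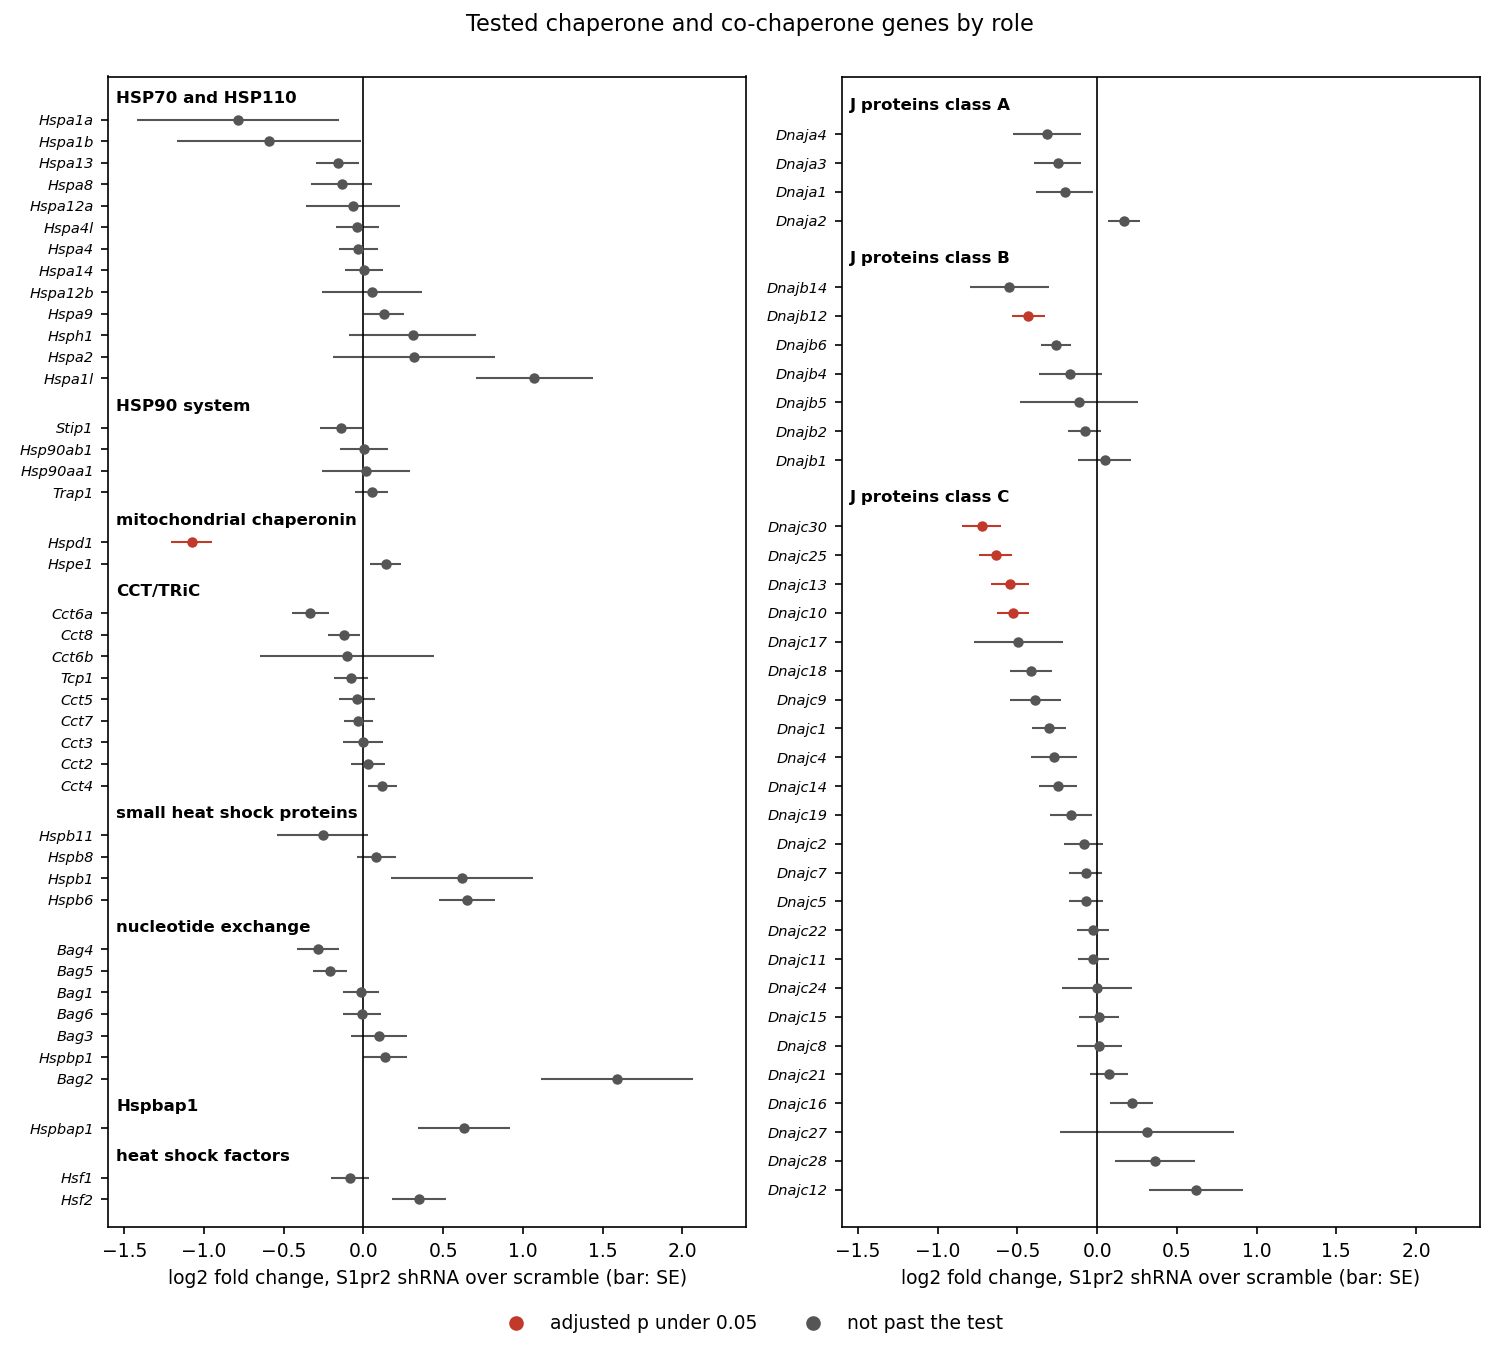
The plot gives the log2 fold change of each of the 77 tested genes, S1pr2 shRNA over scramble, with its standard error, grouped by role. The 6 genes in red passed the test; they run from -1.08 for Hspd1 to -0.43 for Dnajb12, and the farthest gene to the right, Bag2 at 1.59, has a wide error and did not pass.

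Of the mitochondrial chaperonin, 1 of its 2 subunit genes passed the test, with the lowest log2 fold change of the 77 genes. Hspd1, which encodes HSP60, the chamber that folds proteins of the mitochondrial matrix, stood at 126.7, 130.8 and 131.1 CPM in S1pr2 shRNA livers 1 to 3, against 307.4, 242.5 and 270.6 CPM in scramble livers 1 to 3. The groups were far apart, and the highest knockdown liver lay below the lowest scramble liver. Hspd1 averaged 129.5 ± 2.46 CPM in the S1pr2 shRNA livers and 273.5 ± 32.6 CPM in the scramble livers (SD, n = 3 each), 2.11-fold lower in the S1pr2 shRNA livers. The log2 fold change was -1.08 ± 0.13 (SE; edgeR BH-adjusted p = 0.00531), and it held in all 17 other settings, with adjusted p between 3.81e-13 and 0.0361. The value rests on 2137 to 2506 counts in the S1pr2 shRNA libraries and 3899 to 5021 counts in the scramble libraries.

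Hspe1, which encodes HSP10, the lid that closes the HSP60 chamber, did not pass the test. It stood at 65.4, 62.1 and 64.8 CPM in S1pr2 shRNA livers 1 to 3, against 60.4, 53.7 and 60.5 CPM in scramble livers 1 to 3. The 3 knockdown livers lay slightly above the 3 scramble livers, at a log2 fold change of 0.14 ± 0.09 (SE) and an edgeR BH-adjusted p of 0.420. Scaled to transcript length (FPKM), Hspe1 measured 98.24, 79.8 and 86.67 FPKM in S1pr2 shRNA livers 1 to 3, against 76.31, 64.66 and 75.51 FPKM in scramble livers 1 to 3. Hspd1 measured 61.93, 54.65 and 57.02 FPKM in S1pr2 shRNA livers 1 to 3, against 126.3, 94.91 and 109.8 FPKM in scramble livers 1 to 3. Hspd1 was thus the less abundant transcript of the pair in each knockdown liver and the more abundant one in each scramble liver. The ratio of Hspd1 to Hspe1 in FPKM was 0.630, 0.685 and 0.658 in S1pr2 shRNA livers 1 to 3, against 1.66, 1.47 and 1.45 in scramble livers 1 to 3. The ratios averaged 0.658 ± 0.0272 in the S1pr2 shRNA livers and 1.53 ± 0.112 in the scramble livers (SD, n = 3 each). A two-sided exact permutation test of the log2 ratios over the 20 assignments of livers gave p = 0.1, the smallest that 3 against 3 livers allow. The values of the 2 genes fixed that outcome, since neither had overlapping groups and they differed in opposite directions. The test therefore adds nothing to them.

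**Figure D2:**
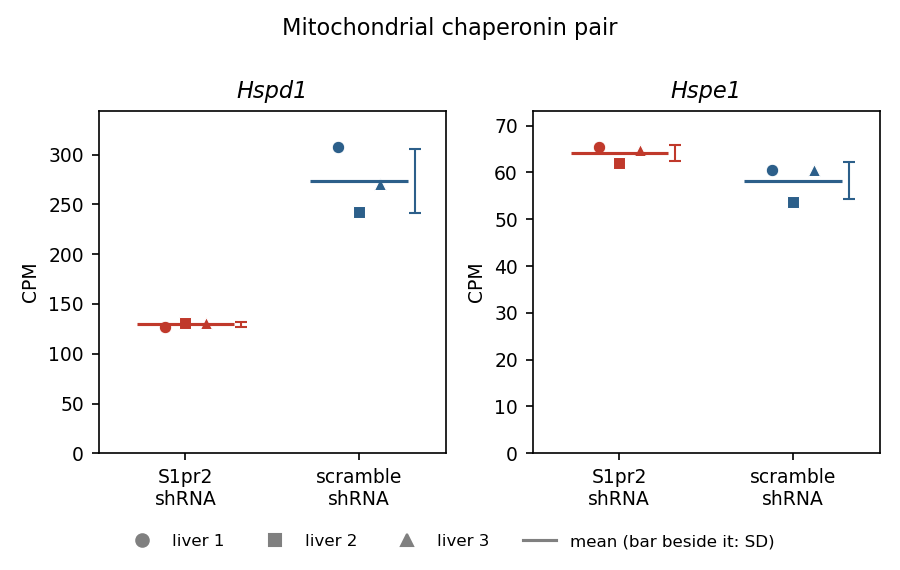
Each point is the CPM of Hspd1 (left) or Hspe1 (right) in 1 liver, with S1pr2 shRNA livers left of scramble livers; lines are means and bars beside them SDs. The S1pr2 shRNA livers lie between 126.7 and 131.1 CPM for Hspd1, below all scramble livers, while for Hspe1 they lie between 62.1 and 65.4 CPM, just above all scramble livers.

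The genes lie head to head on chromosome 1 and their promoter windows overlap; the windows are shown because the fold changes of the transcripts on their 2 sides had opposite signs. In the RefSeq promoter table (GRCm38.p6) the window of Hspe1, chr1:55087898-55088197 on the plus strand, and that of an Hspd1 start, chr1:55087883-55088182 on the minus strand, overlap by 285 bases and are the same DNA read from opposite strands. Each window runs 5′ to 3′ from 250 bases before the start to 50 bases after it, and the starts are 216 bases apart. The capitals mark a run of heat shock element units, in which TTC and GAA alternate with 2 bases between them.
Hspd1: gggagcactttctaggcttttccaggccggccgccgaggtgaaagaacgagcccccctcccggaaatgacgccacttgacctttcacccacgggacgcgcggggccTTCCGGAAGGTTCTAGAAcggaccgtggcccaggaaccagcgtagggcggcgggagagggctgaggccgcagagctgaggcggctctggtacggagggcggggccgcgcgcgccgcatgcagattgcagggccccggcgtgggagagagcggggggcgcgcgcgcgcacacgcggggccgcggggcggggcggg
Hspe1: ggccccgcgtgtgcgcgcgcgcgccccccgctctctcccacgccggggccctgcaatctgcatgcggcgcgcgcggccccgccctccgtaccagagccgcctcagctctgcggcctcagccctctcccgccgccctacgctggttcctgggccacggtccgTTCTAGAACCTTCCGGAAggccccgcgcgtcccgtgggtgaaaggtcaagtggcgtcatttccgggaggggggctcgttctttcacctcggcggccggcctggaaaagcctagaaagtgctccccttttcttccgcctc
In each window the capitals hold TTCNNGAANNTTC and, overlapping it, its reverse, GAANNTTCNNGAA. This 3-unit motif, searched on both strands, was found in the windows of 179 of 27025 genes in the table (0.662%), and in 4 of the 68 chaperone genes that have a window there (5.88%): Hspd1, Hspe1, Hsph1 and Dnajb6. A match describes letters only. Of these 4 genes, only Hspd1 passed the test, and its match is the same DNA as that of Hspe1. The looser 2-unit motif, TTCNNGAA or GAANNTTC, was in the windows of 18 of the 68 genes (26.5%), beside 17% of genes in the table. The table lists a second Hspd1 start, with the window chr1:55088194-55088493 on the minus strand, which lies 95 bases past the Hspe1 start; that window holds no 3-unit match. Since the first exons of Hspd1 and Hspe1 overlap in that annotation and the strand handling of the counts is not given, reads from this overlap cannot be assigned with certainty to either gene. The expected counts of both genes were whole numbers in all 6 libraries, so no split of reads between them is visible. The effect of the overlap on the counts was not tested. Among 16 pairs of a chaperone gene and a divergent neighbour within 1000 bases in which both were tested, Hspd1 and Hspe1 were the only pair with 1 gene called, and no pair had both called. 

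The J proteins, the partners that bring clients to HSP70, held the other 5 calls. The products of these 5 genes sit at the ER (Dnajc10, Dnajc25 and Dnajb12), at endosomes (Dnajc13) or in mitochondria outside the folding machinery (Dnajc30). Of 40 J protein genes listed, 35 were tested; 5 were lower, 0 were higher and 30 did not pass, and 26 of the 35 log2 fold changes were below 0, with a median of -0.17. That is 14.3% called lower, beside 4.64% of all genes, and 74.3% below 0, beside 48.6% of all genes; these differences were not tested. On the FPKM scale, where the median of all genes moved up to 0.16 (pseudocount 0.1), 18 of the 35 were below 0 and 26 lay below that median. Class C, the J proteins that share little but the J domain, held 4 of the calls: the summed level of its 26 genes was 510.2, 535.6 and 540.8 CPM in S1pr2 shRNA livers 1 to 3, against 592.4, 590.3 and 588.4 CPM in scramble livers 1 to 3. Every knockdown liver had the lower sum. The class B sum was 175.2, 165.3 and 177.7 CPM in S1pr2 shRNA livers 1 to 3, against 227.2, 188.5 and 188.4 CPM in scramble livers 1 to 3. Both sums include the called genes, Dnajb12 in class B, so they do not show a fall across either class.

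Dnajc30, which encodes a mitochondrial J protein described at the ATP synthase, had the lowest log2 fold change among them. It stood at 12.0, 16.1 and 14.5 CPM in S1pr2 shRNA livers 1 to 3, against 22.7, 23.8 and 23.9 CPM in scramble livers 1 to 3. The groups did not overlap and the log2 fold change was -0.72 ± 0.12 (SE; edgeR BH-adjusted p = 0.0160). Dnajc30 overlaps Bud23 in the annotation and its expected counts were not whole numbers in 6 of 6 libraries, so reads are shared with another gene; for Bud23 itself the log2 fold change was -0.09 ± 0.11 (SE; edgeR BH-adjusted p = 0.686). The Dnajc30 call held in 14 of 17 settings and missed without S1pr2 shRNA liver 3 (edgeR BH-adjusted p = 0.0515), scramble liver 2 (edgeR BH-adjusted p = 0.0501) or scramble liver 3 (edgeR BH-adjusted p = 0.0566).

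Dnajc25, which encodes a J protein anchored in the ER membrane, stood at 15.6, 16.8 and 18.7 CPM in S1pr2 shRNA livers 1 to 3, against 26.0, 26.2 and 27.2 CPM in scramble livers 1 to 3. The scramble livers were close to each other and all above the knockdown livers, with a log2 fold change of -0.64 ± 0.10 (SE; edgeR BH-adjusted p = 0.0136). This call held in 16 of 17 settings and was lost without S1pr2 shRNA liver 2 (edgeR BH-adjusted p = 0.0694). Dnajc10 encodes ERdj5, a reductase of the ER lumen that breaks disulfide bonds in proteins bound for degradation. It stood at 18.0, 15.5 and 17.7 CPM in S1pr2 shRNA livers 1 to 3, against 23.9, 24.4 and 25.6 CPM in scramble livers 1 to 3. Again no knockdown liver reached the scramble livers, and the log2 fold change was -0.53 ± 0.10 (SE; edgeR BH-adjusted p = 0.0228). The Dnajc10 call held in 11 of 17 settings; it was lost on the FPKM scale and without S1pr2 shRNA liver 2 or 3 or scramble liver 2 or 3, with adjusted p up to 0.157.

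Dnajc13 encodes RME-8, a J protein of endosomes that helps Hspa8 strip clathrin and sort receptors. It stood at 20.7, 20.7 and 22.3 CPM in S1pr2 shRNA livers 1 to 3, against 33.7, 33.0 and 26.4 CPM in scramble livers 1 to 3. Scramble liver 3 was nearest to the knockdown livers but still above them, and the log2 fold change was -0.55 ± 0.12 (SE; edgeR BH-adjusted p = 0.0334). Dnajb12 encodes a J protein of the ER membrane that faces the cytosol and recruits HSP70 to membrane proteins. It stood at 34.7, 39.4 and 38.9 CPM in S1pr2 shRNA livers 1 to 3, against 55.3, 49.8 and 47.2 CPM in scramble livers 1 to 3. Its groups did not overlap either, at a log2 fold change of -0.43 ± 0.10 (SE; edgeR BH-adjusted p = 0.0457). Both calls were close to the threshold: Dnajc13 passed in 8 of 17 settings and, of the 6 that leave out a liver, only without scramble liver 3, and Dnajb12 passed in 4 of 17 settings and in none of those 6, with adjusted p up to 0.172 for Dnajc13 and up to 0.140 for Dnajb12.

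**Figure D3:**
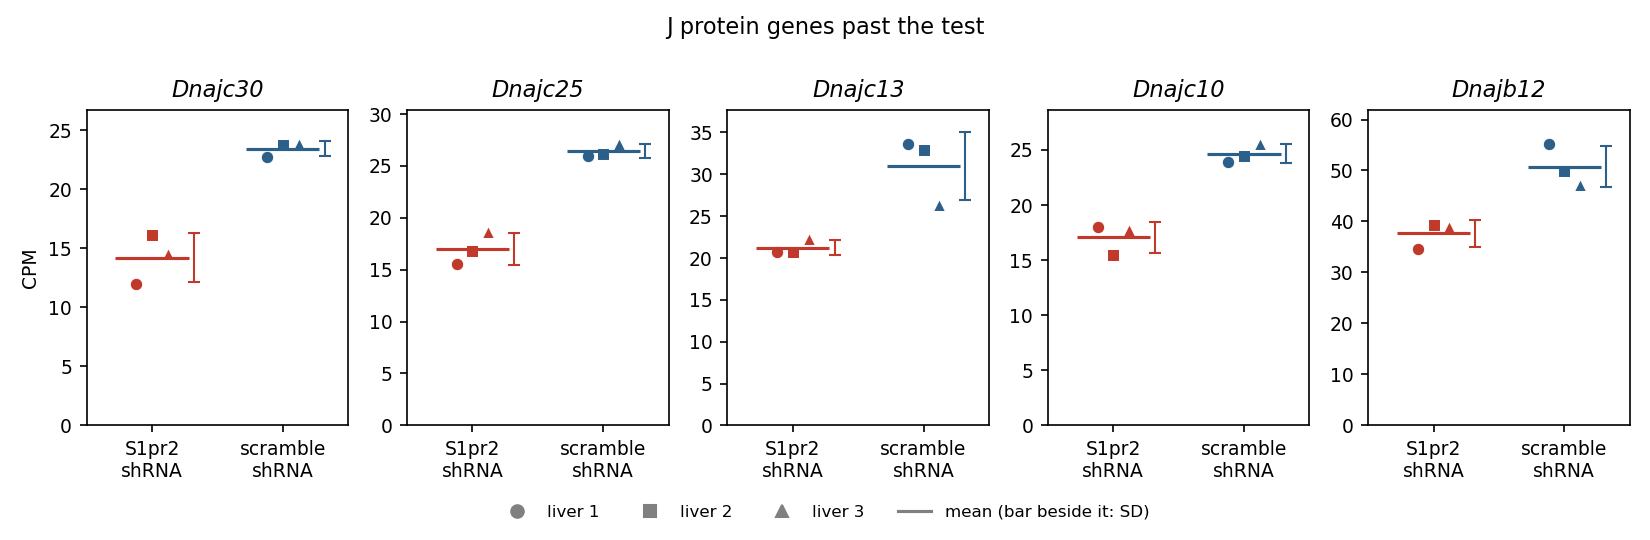
Each panel gives the CPM of 1 J protein gene in every liver, S1pr2 shRNA left of scramble, with means as lines and SDs as bars; every axis starts at 0. In each panel the 3 S1pr2 shRNA livers lie below the 3 scramble livers, with Dnajc30 at 12.0 to 16.1 CPM against 22.7 to 23.9 CPM and Dnajb12 at 34.7 to 39.4 CPM against 47.2 to 55.3 CPM.

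None of the other J proteins passed, although several had groups that did not overlap. Of the 35 tested, the called ones included, 1 was higher and 11 were lower without overlap. Over all genes tested these shares were 15.1% and 16.8%, and no difference from them was tested. Dnajb6, which keeps polyglutamine proteins from aggregating, stood at 45.7, 47.6 and 47.8 CPM in S1pr2 shRNA livers 1 to 3, against 61.3, 53.1 and 54.4 CPM in scramble livers 1 to 3 (log2 fold change -0.26 ± 0.10, SE; edgeR BH-adjusted p = 0.144). Dnajc1, a J protein of the ER membrane, had 33.8, 38.2 and 36.5 CPM in S1pr2 shRNA livers 1 to 3, against 45.0, 48.2 and 40.5 CPM in scramble livers 1 to 3 (log2 fold change -0.30; edgeR BH-adjusted p = 0.125). Dnajc18 had 8.60, 7.59 and 7.20 CPM in S1pr2 shRNA livers 1 to 3, against 9.92, 10.1 and 11.1 CPM in scramble livers 1 to 3 (log2 fold change -0.41; edgeR BH-adjusted p = 0.0965). In these 3 genes each knockdown liver lay below each scramble liver. Dnajc9, which also acts as a histone chaperone, had 4.04, 4.04 and 3.86 CPM in S1pr2 shRNA livers 1 to 3, against 5.63, 5.10 and 4.90 CPM in scramble livers 1 to 3 (log2 fold change -0.39; edgeR BH-adjusted p = 0.186), likewise without overlap. The 3 class C genes with the highest CPM, which is not scaled to length, had overlapping groups: Dnajc22 had 57.9, 53.2 and 58.1 CPM in S1pr2 shRNA livers 1 to 3, against 52.6, 57.3 and 62.4 CPM in scramble livers 1 to 3. Dnajc5, the cysteine string protein of secretory vesicles, had 57.9, 48.8 and 47.7 CPM in S1pr2 shRNA livers 1 to 3, against 55.5, 55.4 and 51.1 CPM in scramble livers 1 to 3. Dnajc19, a part of the motor that pulls proteins into mitochondria, likewise overlapped. Its level was 38.4, 48.7 and 51.7 CPM in S1pr2 shRNA livers 1 to 3, against 47.4, 54.0 and 54.1 CPM in scramble livers 1 to 3.

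Class A, the J proteins built like bacterial DnaJ, had 4 genes tested and 0 called. Dnaja1, the main cytosolic partner of Hspa8, stood at 168.0, 160.0 and 160.8 CPM in S1pr2 shRNA livers 1 to 3, against 242.8, 156.6 and 163.1 CPM in scramble livers 1 to 3. Only scramble liver 1 was apart, and the log2 fold change was -0.20 (edgeR BH-adjusted p = 0.547). Dnaja2, a cytosolic J protein of the same kind, had 102.3, 93.4 and 91.9 CPM in S1pr2 shRNA livers 1 to 3, against 87.1, 80.5 and 88.4 CPM in scramble livers 1 to 3 (log2 fold change 0.17; edgeR BH-adjusted p = 0.353). It was the 1 J protein gene whose knockdown livers all lay above the scramble livers. Dnaja3, the mitochondrial J protein of Hspa9, had 118.7, 150.9 and 107.5 CPM in S1pr2 shRNA livers 1 to 3, against 160.2, 142.4 and 144.5 CPM in scramble livers 1 to 3 (log2 fold change -0.25; edgeR BH-adjusted p = 0.355). In class B, Dnajb2 had 32.9, 32.3 and 36.2 CPM in S1pr2 shRNA livers 1 to 3, against 38.8, 35.1 and 33.2 CPM in scramble livers 1 to 3. Dnajb14, a membrane J protein of the ER related to Dnajb12, had 3.29, 2.88 and 2.81 CPM in S1pr2 shRNA livers 1 to 3, against 5.45, 3.11 and 4.60 CPM in scramble livers 1 to 3 (log2 fold change -0.55; edgeR BH-adjusted p = 0.217). In both genes the groups overlapped.

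The HSP70 genes, the core of the family, did not pass in either direction: 13 were tested and 0 were called, with a median log2 fold change of -0.03. Hspa8, the constitutive cytosolic HSP70, was the most abundant transcript of the family at 490.1 FPKM in the S1pr2 shRNA livers and 483.1 FPKM in the scramble livers on average. In CPM it stood at 1123, 906.3 and 892.6 in S1pr2 shRNA livers 1 to 3, against 1237, 860.7 and 1113 in scramble livers 1 to 3 (log2 fold change -0.14; edgeR BH-adjusted p = 0.721). The groups overlapped. Hspa9, the mitochondrial HSP70 that imports and folds matrix proteins upstream of the HSP60 chamber, had 458.7, 465.1 and 415.8 CPM in S1pr2 shRNA livers 1 to 3, against 406.0, 408.3 and 411.6 CPM in scramble livers 1 to 3. Its knockdown livers all lay above the scramble livers, by a log2 fold change of 0.13 that did not pass (edgeR BH-adjusted p = 0.589). Hspa4, an HSP110-type exchange factor, had 121.7, 107.3 and 113.5 CPM in S1pr2 shRNA livers 1 to 3, against 132.6, 110.1 and 107.5 CPM in scramble livers 1 to 3, again overlapping.

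Of the heat-inducible genes, Hspa1a, Hspa1b, Hsph1, Dnajb1 and Dnajb4 lie outside the rule for naming genes and were added with their values known; none passed the test. Hspa1a and Hspa1b, the inducible HSP70 genes, are near-identical copies whose counts were not whole numbers in 6 of 6 libraries, so they are given as a sum as well. Together they stood at 15.6, 7.85 and 6.75 CPM in S1pr2 shRNA livers 1 to 3, against 29.1, 9.55 and 8.63 CPM in scramble livers 1 to 3. Liver 1 was the highest in each group and lay above both of the other livers of the opposite group. Alone, Hspa1b had a log2 fold change of -0.59 (edgeR BH-adjusted p = 0.597) and Hspa1a one of -0.79 (edgeR BH-adjusted p = 0.507). Their neighbour Hspa1l, whose protein is nearly the same but is made mainly in testis, had 1.07, 1.2 and 1.2 CPM in S1pr2 shRNA livers 1 to 3, against 0.421, 0.776 and 0.50 CPM in scramble livers 1 to 3. It also had counts that were not whole numbers, and its log2 fold change of 1.07 ± 0.37 (SE) did not pass (edgeR BH-adjusted p = 0.118).

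Hsph1, the inducible HSP110, stood at 39.7, 20.2 and 21.2 CPM in S1pr2 shRNA livers 1 to 3, against 32.6, 13.7 and 19.4 CPM in scramble livers 1 to 3 (log2 fold change 0.31; edgeR BH-adjusted p = 0.706). Dnajb1, the inducible J protein, had 23.1, 17.3 and 19.4 CPM in S1pr2 shRNA livers 1 to 3, against 23.0, 15.8 and 19.2 CPM in scramble livers 1 to 3 (log2 fold change 0.05; edgeR BH-adjusted p = 0.899). Dnajb4, a close relative of Dnajb1, had 32.7, 23.9 and 29.4 CPM in S1pr2 shRNA livers 1 to 3, against 41.8, 29.0 and 25.9 CPM in scramble livers 1 to 3. In all of these, liver 1 was the highest of its group. Over the 77 tested genes, liver 1 was the highest of the S1pr2 shRNA group in 40 genes (51.9%) and of the scramble group in 39 genes (50.6%), beside 39.3% and 38.6% over all genes tested. The labels do not say whether a replicate number links livers across groups.

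**Figure D4:**
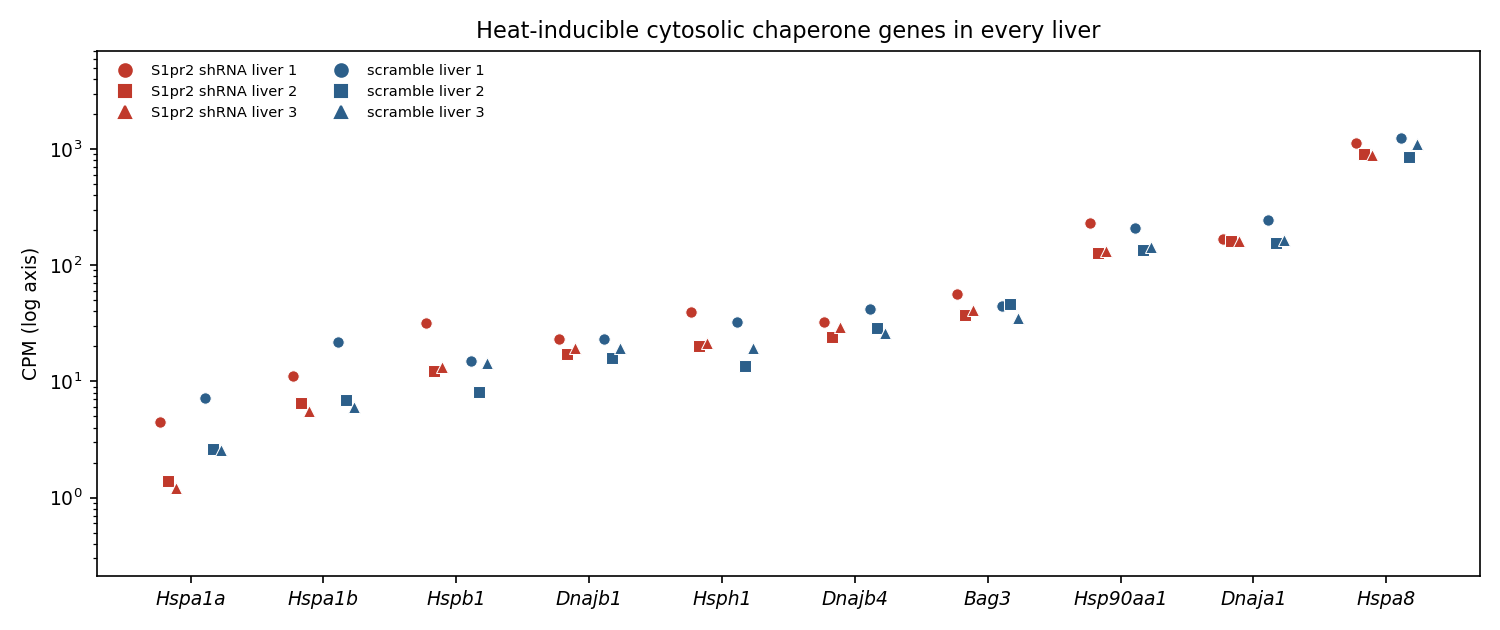
The plot gives the CPM of 10 cytosolic chaperone genes in every liver on a log axis. All but the constitutive Hspa8 are heat-inducible. S1pr2 shRNA is in red left of scramble in blue, with a symbol per liver number. Circles (liver 1) sit at the top of each group except for Bag3 in the scramble livers, as with Hsp90aa1 at 231.2 CPM in S1pr2 shRNA liver 1 and 206.9 CPM in scramble liver 1; the colours overlap in all 10 genes.

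HSP90, which with its adaptor keeps the glucocorticoid receptor able to bind hormone, showed overlapping groups in each of its 4 genes. Hsp90ab1, the constitutive cytosolic form, stood at 739.0, 672.5 and 629.3 CPM in S1pr2 shRNA livers 1 to 3, against 759.9, 611.3 and 664.1 CPM in scramble livers 1 to 3 (log2 fold change 0.00; edgeR BH-adjusted p = 0.991). Hsp90aa1, the inducible form, had 231.2, 126.4 and 132.1 CPM in S1pr2 shRNA livers 1 to 3, against 206.9, 134.8 and 142.7 CPM in scramble livers 1 to 3 (log2 fold change 0.02; edgeR BH-adjusted p = 0.98). For neither form did the groups separate. Stip1, the adaptor that links HSP70 to HSP90, had 65.0, 58.0 and 53.4 CPM in S1pr2 shRNA livers 1 to 3, against 75.5, 58.0 and 61.4 CPM in scramble livers 1 to 3 (edgeR BH-adjusted p = 0.564). Trap1, the HSP90 of mitochondria, had 146.3, 153.2 and 148.3 CPM in S1pr2 shRNA livers 1 to 3, against 140.9, 150.1 and 140.6 CPM in scramble livers 1 to 3 (log2 fold change 0.05; edgeR BH-adjusted p = 0.806). Of the mitochondrial chaperone genes Hspa9, Trap1, Hspe1 and Dnaja3, none passed, beside the call for Hspd1.

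The cytosolic chaperonin CCT gave 0 calls among 9 subunit genes. Their log2 fold changes ran from -0.33 to 0.12 with a median of -0.04, and the summed level was 750.3, 736.4 and 703.0 CPM in S1pr2 shRNA livers 1 to 3, against 775.4, 726.0 and 788.6 CPM in scramble livers 1 to 3. Cct6a was the 1 subunit gene whose groups did not overlap: it stood at 75.6, 71.3 and 68.3 CPM in S1pr2 shRNA livers 1 to 3, against 102.1, 81.7 and 87.3 CPM in scramble livers 1 to 3 (log2 fold change -0.33; edgeR BH-adjusted p = 0.123). Tcp1, the first subunit named, had 145.3, 161.0 and 154.8 CPM in S1pr2 shRNA livers 1 to 3, against 160.4, 158.8 and 167.4 CPM in scramble livers 1 to 3. Cct2 had 110.5, 102.8 and 97.0 CPM in S1pr2 shRNA livers 1 to 3, against 103.3, 94.6 and 106.4 CPM in scramble livers 1 to 3. For both genes the groups overlapped, as they did for the remaining subunits. Cct3 had 73.7, 63.1 and 59.6 CPM in S1pr2 shRNA livers 1 to 3, against 73.2, 59.2 and 64.1 CPM in scramble livers 1 to 3. Cct4 had 69.3, 68.3 and 66.5 CPM in S1pr2 shRNA livers 1 to 3, against 61.2, 60.4 and 66.7 CPM in scramble livers 1 to 3, with the highest log2 fold change of the complex at 0.12 (edgeR BH-adjusted p = 0.486). Cct5 had 109.4, 98.7 and 94.7 CPM in S1pr2 shRNA livers 1 to 3, against 97.5, 100.7 and 113.1 CPM in scramble livers 1 to 3. These subunits sit in the same ring, and none passed the test. Cct7 had 65.4, 66.6 and 62.5 CPM in S1pr2 shRNA livers 1 to 3, against 62.9, 66.6 and 69.4 CPM in scramble livers 1 to 3. Cct8 had 100.9, 104.2 and 98.6 CPM in S1pr2 shRNA livers 1 to 3, against 114.4, 103.2 and 113.3 CPM in scramble livers 1 to 3. Cct6b, the testis form of Cct6a, was near the limit of detection, at 0.354, 0.490 and 1.05 CPM in S1pr2 shRNA livers 1 to 3, against 0.367, 0.746 and 0.907 CPM in scramble livers 1 to 3.

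**Figure D5:**
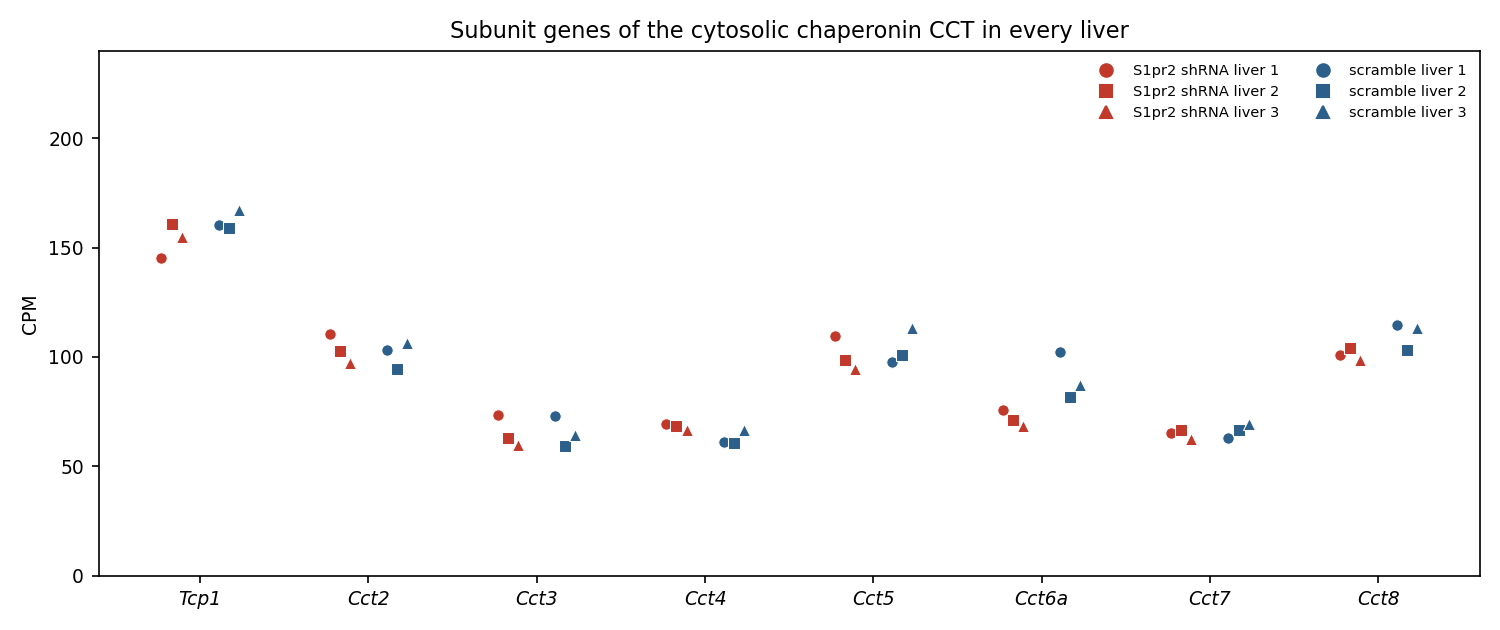
The plot gives the CPM of the 8 CCT subunit genes other than Cct6b in every liver, S1pr2 shRNA in red left of scramble in blue, with a symbol per liver number and an axis that starts at 0. The colours overlap for each gene except Cct6a, where the S1pr2 shRNA livers lie at 68.3 to 75.6 CPM and the scramble livers at 81.7 to 102.1 CPM.

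The small heat shock proteins hold unfolded proteins in large oligomers without ATP; 4 of 7 genes were tested and 0 were called. Hspb8, which works with Bag3 in sending aggregates to autophagy, was the most abundant, with 123.2, 145.5 and 128.7 CPM in S1pr2 shRNA livers 1 to 3, against 137.7, 120.0 and 117.9 CPM in scramble livers 1 to 3 (log2 fold change 0.08). Hspb6, known as HSP20 and abundant in smooth muscle, had 28.0, 22.5 and 17.9 CPM in S1pr2 shRNA livers 1 to 3, against 13.8, 16.5 and 13.3 CPM in scramble livers 1 to 3. Each knockdown liver lay above each scramble liver, and the log2 fold change of 0.65 ± 0.17 (SE) missed the threshold (edgeR BH-adjusted p = 0.0624). It passed with upper-quartile scaling, with DESeq2 and without S1pr2 shRNA liver 3, and its adjusted p ran from 0.0275 to 0.171 over 17 settings. Hspb1, or HSP25, had 32.0, 12.3 and 13.2 CPM in S1pr2 shRNA livers 1 to 3, against 15.1, 8.09 and 14.5 CPM in scramble livers 1 to 3 (log2 fold change 0.62; edgeR BH-adjusted p = 0.459). The groups overlapped, with S1pr2 shRNA liver 1 apart. Hspb11, a part of the transport system of cilia in spite of its name, had 2.12, 2.02 and 3.63 CPM in S1pr2 shRNA livers 1 to 3, against 2.76, 3.42 and 3.09 CPM in scramble livers 1 to 3.

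Among the nucleotide exchange factors, 7 genes were tested and 0 were called. The groups did not overlap for 1 gene that was higher, Bag2, and for 2 that were lower. These were Bag4 (log2 fold change -0.28) and Bag5 (-0.21), which lie outside the rule for naming genes. Over all genes tested, 15.1% were higher and 16.8% lower without overlap, and no difference from these shares was tested. Bag2, which inhibits the ubiquitin ligase CHIP on HSP70 clients, had the highest log2 fold change of the family, on few reads: 70, 33 and 25 counts in S1pr2 shRNA livers 1 to 3, against 6, 15 and 17 counts in scramble livers 1 to 3. That is 3.54, 2.02 and 1.46 CPM in S1pr2 shRNA livers 1 to 3, against 0.367, 0.933 and 1.03 CPM in scramble livers 1 to 3. The groups did not overlap, and the log2 fold change of 1.59 ± 0.48 (SE) missed the threshold (edgeR BH-adjusted p = 0.0866) and passed only with DESeq2 (adjusted p = 0.0346). Bag1, which releases clients from HSP70 at the proteasome, had 90.9, 88.8 and 98.5 CPM in S1pr2 shRNA livers 1 to 3, against 102.4, 84.7 and 94.4 CPM in scramble livers 1 to 3. Bag6, which guards membrane proteins before insertion, had 71.9, 81.0 and 70.9 CPM in S1pr2 shRNA livers 1 to 3, against 83.3, 76.1 and 65.9 CPM in scramble livers 1 to 3. Both overlapped between groups. Bag3, the stress-inducible Bag protein, had 56.5, 37.0 and 41.4 CPM in S1pr2 shRNA livers 1 to 3, against 44.8, 45.9 and 35.4 CPM in scramble livers 1 to 3 (edgeR BH-adjusted p = 0.785).

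Some markers of other liver cells were higher in the same livers. Of 10 endothelial markers, 4 were higher in the S1pr2 shRNA livers (log2 fold changes of 0.49 for Cdh5, 0.57 for Kdr, 0.73 for Tie1 and 0.48 for Tek), or 40% beside 3.02% of all genes. The other 6 did not pass and ran from -0.83 for Lyve1 and -0.20 for Flt1 to 0.42 for Stab2. The marker lists were chosen with earlier results of these data known, and the difference in shares was not tested. The summed level of the endothelial list was 325.6, 325.5 and 297.2 CPM in S1pr2 shRNA livers 1 to 3, against 243.7, 270.3 and 258.1 CPM in scramble livers 1 to 3. Of 10 macrophage markers 0 passed, but all 10 log2 fold changes were above 0 (median 0.54, beside 0.01 over all genes). Their sum ran from 203.6 to 398.7 CPM in the S1pr2 shRNA livers and from 142.9 to 265.4 CPM in the scramble livers. Of 10 markers of stellate cells and fibroblasts 0 passed, with 9 log2 fold changes above 0 and 1 below (median 0.32). Their sum ran from 309.5 to 560.2 CPM in the S1pr2 shRNA livers and from 199.2 to 496.1 CPM in the scramble livers. Of 5 cholangiocyte markers tested 0 passed; their sum ran from 45.3 to 105.1 CPM in the S1pr2 shRNA livers and from 27.7 to 54.6 CPM in the scramble livers. The highest of these cholangiocyte sums is mostly Spp1, at 84.7 CPM in S1pr2 shRNA liver 1, where Krt19 stood at 3.94 CPM, against 2.20 to 10.6 CPM in the scramble livers. The macrophage and the stellate cell sums were highest in S1pr2 shRNA liver 1, which also had the highest Hspb6, Hspb1 and Bag2. Scramble liver 3 had the next highest of these sums, at 265.4 and 496.1 CPM. In that liver Hspb6 stood at 13.3 CPM, the lowest of all livers, Hspb1 at 14.5 CPM and Bag2 at 1.03 CPM. Of 6 muscle markers 1 was tested, and their sum was 5.47, 2.30 and 1.36 CPM in S1pr2 shRNA livers 1 to 3, against 2.03, 2.62 and 2.86 CPM in scramble livers 1 to 3. Lymphocyte markers (0 of 8 tested) summed to at most 1.90 CPM, and the 5 neutrophil markers listed to at most 2.87 CPM. The part of cell makeup in the chaperone values was not tested.

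Heat shock factors, which switch on the inducible members, did not pass. Hsf1 stood at 14.1, 13.3 and 12.1 CPM in S1pr2 shRNA livers 1 to 3, against 15.4, 13.1 and 13.4 CPM in scramble livers 1 to 3 (log2 fold change -0.09; edgeR BH-adjusted p = 0.715). Hsf2 had 21.0, 15.2 and 16.5 CPM in S1pr2 shRNA livers 1 to 3, against 16.1, 11.4 and 13.9 CPM in scramble livers 1 to 3 (log2 fold change 0.35 ± 0.17, SE; edgeR BH-adjusted p = 0.246). Both had overlapping groups. Hspbap1, named for binding a small heat shock protein, had 4.90, 2.94 and 4.39 CPM in S1pr2 shRNA livers 1 to 3, against 3.49, 2.24 and 2.16 CPM in scramble livers 1 to 3 (edgeR BH-adjusted p = 0.225). The 30 tested genes outside the rule for naming genes had log2 fold changes between -0.79 and 0.62, 13 above 0 and 17 below, and none had an adjusted p under 0.232. The 8 genes left untested (Dnajb3, Dnajb7, Dnajb13, Dnajc5b, Dnajc6, Hspb2, Hspb7 and Hspb9) had between 1 and 42 counts over the 6 libraries together.

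Of 22 co-chaperones of HSP70 and HSP90 outside the family, 1 was lower (4.55%, beside 4.64% of all genes) and 0 were higher: Sgta, which hands tail-anchored membrane proteins on to Bag6, had 41.5, 42.8 and 45.1 CPM in S1pr2 shRNA livers 1 to 3, against 68.6, 61.0 and 61.6 CPM in scramble livers 1 to 3 (log2 fold change -0.56 ± 0.10, SE; edgeR BH-adjusted p = 0.0157). Fkbp5, the HSP90 co-chaperone that lowers hormone binding by the glucocorticoid receptor and is itself a glucocorticoid target, was outside the rule for naming genes and is given after its values were seen. It had 101.9, 138.7 and 40.6 CPM in S1pr2 shRNA livers 1 to 3, against 711.0, 245.6 and 353.1 CPM in scramble livers 1 to 3. No knockdown liver reached the scramble livers, but the spread was wide and the log2 fold change of -2.22 ± 0.58 (SE) did not pass (edgeR BH-adjusted p = 0.0800).

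None of 16 other Hsf1 targets, 17 prefoldin genes and CCT partners, 24 genes of mitochondrial import and protein quality control or 9 genes of aggregate handling passed the test; their median log2 fold changes were -0.05, -0.15, -0.05 and 0.05. Nor did 3 tested genes of the HSF family and its regulators beside Hsf1 and Hsf2: Hsf4 (log2 fold change -0.15), Hsbp1 (-0.10) and Eef1a1 (0.43). The genes of mitochondrial import and quality control, which act in the same organelle as HSP60, had 8 log2 fold changes above 0 and 16 below. That is 66.7% below 0, beside 48.6% of all genes, a difference that was not tested. Among 16 ER chaperone genes, 3 were higher (18.8%, beside 3.02% of all genes) and 1 was lower (6.25%, beside 4.64% of all genes). The ER list was chosen with earlier results of these data known, and the differences in shares were not tested. Manf, a secreted protein of the ER stress response, had 155.5, 174.7 and 159.2 CPM in S1pr2 shRNA livers 1 to 3, against 86.9, 108.1 and 86.3 CPM in scramble livers 1 to 3 (log2 fold change 0.80; edgeR BH-adjusted p = 0.0136). Creld2, another secreted ER stress protein, had 53.2, 53.7 and 39.8 CPM in S1pr2 shRNA livers 1 to 3, against 28.5, 26.2 and 22.6 CPM in scramble livers 1 to 3 (log2 fold change 0.93; edgeR BH-adjusted p = 0.0127). Sdf2l1, a partner of the ER J protein ERdj3, had 37.9, 43.3 and 27.2 CPM in S1pr2 shRNA livers 1 to 3, against 8.88, 15.6 and 8.47 CPM in scramble livers 1 to 3 (log2 fold change 1.72; edgeR BH-adjusted p = 0.0189). All 3 genes had every knockdown liver above every scramble liver. Dnajb11, which is ERdj3, went the other way, with 57.8, 59.7 and 61.3 CPM in S1pr2 shRNA livers 1 to 3, against 89.5, 103.0 and 78.6 CPM in scramble livers 1 to 3 (log2 fold change -0.60; edgeR BH-adjusted p = 0.0252). In transcripts per length, the most abundant members after Hspa8 were Hsp90ab1 (285.5 FPKM in S1pr2 shRNA livers and 255.9 FPKM in scramble livers on average) and Hspa9 (152.3 FPKM in S1pr2 shRNA livers and 125.4 FPKM in scramble livers), and Hspd1, at 57.9 FPKM in S1pr2 shRNA livers and 110.3 FPKM in scramble livers, was next only in the scramble livers.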

How the data were processed

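RNA sequencing (DNB platform) of 6 livers was analysed from gene tables the authors deposited. Per the file headers, these hold for each gene a length, an expected count, which RSEM assigns without scaling to depth, and FPKM, which the authors scaled to transcript length and mapped fragments. HISAT2, Bowtie2, RSEM 1.2.12, DESeq2 and mm9 are named in the submitters' processing notes; for their order, the filters on reads and strand use, the sources used here give nothing. Between 24.5 and 25.2% of listed genes per library had expected counts that were not whole numbers, as reads were shared between genes; counts were rounded, and a gene not listed was taken as 0.

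Genes passing filterByExpr of edgeR 4.0.16 (minimum count 10) numbered 12230. They were scaled by TMM and compared with the two-sided quasi-likelihood F test (R 4.3.3, robust, with no factor but the group), with Benjamini-Hochberg adjustment over all of them; the threshold was an adjusted p of 0.05, and the biological coefficient of variation was 20%. The script was tested on simulated data. Depth was 16558775 to 17410160 expected counts per library, so that low genes such as Bag2 rest on few counts. All 15 pairs of libraries differed beyond sampling noise. Alternatives were other scalings and filters, DESeq2 1.42.0, limma 3.58.1 on counts and on log2(FPKM + 0.1) or log2(FPKM + 1), a replicate block and leaving out livers. Values were given liver by liver for all genes called, the 3 most abundant per role, whole small classes and the 10 lowest p-values not called. Genes of partner lists were named where called. Members and lists were chosen with earlier results of these data known. Promoters came from the RefSeq table (GRCm38.p6); 68 of 85 genes matched. Coordinates are of that build, not of mm9.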

Additional observations from a re-analysis of the deposited data

How the results depend on the processing

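Hspd1 was lower at an adjusted p under 0.05 in all 17 other settings. The 6 lower chaperone genes of the edgeR test became 5 with upper-quartile factors, 5 with no filter, 5 with limma-voom, 3 on either FPKM scale, 4 without replicate 1 of both groups (chosen after seeing the data) and 2 to 4 with 1 liver left out: 2 without S1pr2 shRNA liver 2 or 3 or scramble liver 2, 3 without scramble liver 3 and 4 without liver 1 of either group. Genes called higher, 0 in the edgeR test, were 1 with upper-quartile factors, 2 with DESeq2 and 0 to 1 with 1 liver left out (1 without S1pr2 shRNA liver 3). Over all genes, 937 calls became 1461 with DESeq2 and 231 (without S1pr2 shRNA liver 2) to 643 (without S1pr2 shRNA liver 1) with 1 liver left out. Lower genes made up 60.6% of calls with TMM factors, 48.5% with upper-quartile factors and 30.8% on the log2(FPKM + 0.1) scale. The log2 fold change of S1pr2, -1.12, missed the threshold on both FPKM scales (-0.90 with a pseudocount of 0.1 and -0.54 with 1) and ran from -1.29 to -0.95 with 1 liver left out. The causes were not tested. Deviations of replicates with the same number correlated at -0.02, 0.25 and -0.12, beside -0.29 to 0.29 for replicates with different numbers. Such values from groups of 3 livers cannot show whether the numbers pair livers, and the labels do not say. With a replicate block 808 genes were called, 4 chaperone genes were lower, and S1pr2 stood at -1.11, no longer past the threshold. Groups of 3 livers and few counts limit what low genes such as Bag2 and Hspa1l can show.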
